A study of Homo sapiens with 24 samples.

Results

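MHC class II molecules and the genes that control them were followed in 2 leukemia cell lines treated with a BET inhibitor. The group was given as 10 named genes: CIITA, RFX5, RFXAP, RFXANK, CD74, HLA-DRA, HLA-DMA, HLA-DMB, HLA-DOA and HLA-DOB. A gene counted as measured where an array row of the core summary carried its symbol and no other, which held for 7 of the 10 among 14232 such genes in all. RFXANK, HLA-DMA and HLA-DOB stand only on rows shared with other symbols and were not measured. Each measured gene had exactly 1 row of its own. HLA-DMB also stands on 1 row shared with other symbols, which was not used.

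The lines, MHH-CALL4 and MUTZ-5, are established cultures of human B cell acute lymphoblastic leukemia. Each was exposed for 8 hours to DMSO, the solvent, or to 500 nM JQ1, a small molecule that displaces BET proteins from acetylated histones. This gives 4 groups, MHH-CALL4 DMSO, MHH-CALL4 JQ1, MUTZ-5 DMSO and MUTZ-5 JQ1, of 3 samples each, and 1 array was run per sample. Both lines grew in the same serum-supplemented medium, and each group is cells of a single line in culture. The sources used here do not give the origin of the 3 samples of a group, whether from separate cultures or from 1, so the p-values rest on a spread that may be purely technical. Values are RMA log2 values, on which a difference of 1 is a 2-fold change, given as mean ± SD with n = 3 arrays.

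Class II molecules present peptides from endosomes to CD4 T cells and are carried by B cells, dendritic cells and macrophages. RFX5, RFXAP and RFXANK form the RFX complex, which binds the X box of class II promoters beside CREB, while NF-Y binds the Y box. CIITA does not bind DNA itself but docks on this assembly and recruits coactivators, and its own transcription is the main switch of the pathway. HLA-DRA is the alpha chain of HLA-DR, CD74 is the invariant chain that fills the groove until the endosome, HLA-DM (chains DMA and DMB) exchanges its remnant for peptide, and HLA-DO (chains DOA and DOB) restrains HLA-DM in B cells.

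The lines carried the RNA profile of B lineage cells. Of 12 B lineage markers 11 were measured, and all 11 lay at or above the median of all gene means (8.52) in every group. Of 12 markers of monocytes, macrophages and dendritic cells, which also carry class II, 10 were measured and 0 reached that median in any group. The mean of these 10 markers per array lay at 6.64 on all 3 MHH-CALL4 DMSO arrays, between 6.42 and 6.64 in MHH-CALL4 JQ1, 6.39 and 6.59 in MUTZ-5 DMSO, and 6.46 and 6.53 in MUTZ-5 JQ1. Of 12 T and NK cell markers, all measured, only NKG7 lay above the median.

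The B lineage markers were not level under JQ1. In MHH-CALL4 6 of the 11 fell, 0 rose and 5 did not pass (median -0.45), and in MUTZ-5 5 fell, 1 rose and 5 did not pass (median -0.14). Over all genes 17.5% fell and 11% rose in MHH-CALL4, while MUTZ-5 had 13% lower and 9.06% higher, with medians of 0.0065 and 0.0084. CD72, a B cell coreceptor, fell by 1.68 and 1.51, VPREB1, a surrogate light chain of precursor B cells, by 1.03 and 1.09, and CD79A, a chain of the B cell receptor complex, by 0.57 and 0.64. CD22 fell by 0.52 and 0.35, and MS4A1, which encodes CD20, fell by 0.56 in MHH-CALL4 and stood at 0.034 in MUTZ-5. The marker that rose in MUTZ-5 was BLNK, from 12.37 to 12.71. In MHH-CALL4 it went from 12.60 to 12.77, which did not pass. PAX5 and DNTT passed in neither line. The mean of the 11 markers per array lay between 12.41 and 12.51 in MHH-CALL4 DMSO and 12.02 and 12.03 in MHH-CALL4 JQ1, and between 12.25 and 12.37 in MUTZ-5 DMSO and 11.95 and 11.99 in MUTZ-5 JQ1. The part of these markers in the class II results was not tested.

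The median of the 14232 genes lay between 8.46 and 8.57 on the 12 arrays. MYC, a known BET target, fell by 2.05 in MHH-CALL4 and by 1.32 in MUTZ-5, and HEXIM1, a known marker of BET inhibition, rose by 1.76 and 1.51. The largest component of variation within groups held 43.9% of that variation and set MHH-CALL4 JQ1 array 3 (score 0.47) against MUTZ-5 DMSO array 3 (score -0.55). Each comparison was also run without each array in turn.

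The comparison of JQ1 with DMSO asks how BET inhibition changes this pathway in each line. In MHH-CALL4 the regulators CIITA and RFX5, the HLA-DM chain HLA-DMB and the HLA-DO chain HLA-DOA fell under JQ1. RFXAP, HLA-DRA and CD74 did not pass the test there. In MUTZ-5 none of the 7 genes passed. A difference of effects between the lines was called only for CIITA and HLA-DMB, so RFX5 and HLA-DOA were not shown to respond differently. In MHH-CALL4 4 of the 7 genes were called lower and 0 higher at an adjusted p under 0.05 (limma over all 14232 genes), where the shares over all genes were 17.5% and 11%. In 5 of the 7 every JQ1 array lay below every DMSO array, as in 24.1% of all genes, and in 0 above, as in 19.7%. In MUTZ-5 0 of 7 were called by limma, where 13% of all genes were called lower and 9.06% higher. At an unadjusted limma p under 0.05 there was 1 of the 7, RFX5. The MUTZ-5 groups did not overlap in 1 of the 7, HLA-DMB, which was higher under JQ1, as 13.8% of all genes were, while 18.7% were lower. The median difference of the 7 genes was -0.28 in MHH-CALL4 and 0.0062 in MUTZ-5, beside 0.0065 and 0.0084 over all genes. The genes were chosen with earlier results of these data known, so the shares over all genes are no independent test of the group.

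CIITA, the master coactivator, had values of 11.52, 11.59 and 11.57 under DMSO and 10.84, 10.86 and 10.83 under JQ1 in MHH-CALL4. The 3 JQ1 arrays lay within a narrow band below all DMSO arrays. In MUTZ-5 the values were 11.65, 11.51 and 11.66 under DMSO and 11.40, 11.50 and 11.51 under JQ1, and the groups met at 11.51. CIITA fell in MHH-CALL4 from 11.56 ± 0.038 to 10.84 ± 0.017, a 1.64-fold decrease (limma, difference -0.71, SE 0.068, adjusted p = 4.8e-06). In MUTZ-5 it went from 11.61 ± 0.082 to 11.47 ± 0.060, a difference of -0.14 with a 95% interval from -0.28 to 0.012 (adjusted p = 0.205). The effects differed between the lines by 0.58 (SE 0.097, adjusted p = 0.0066), and 2 of the 7 genes, this one and HLA-DMB, had a called difference of effects in that direction and 0 in the other. Over all genes 0.949% were called in that direction and 0.583% in the other. The CIITA effect in MHH-CALL4 ranked 582 of 14232 genes from the lowest. The order of the 4 levels was MHH-CALL4 JQ1, MUTZ-5 JQ1, MHH-CALL4 DMSO and MUTZ-5 DMSO. The arrays of MUTZ-5 JQ1 and MHH-CALL4 DMSO came as near as 11.51 and 11.52 and were not tested against each other, and the 2 DMSO groups did not differ past the threshold.

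RFX5, the DNA-binding subunit of the RFX complex, had values of 11.01, 10.90 and 10.88 under DMSO and 10.61, 10.31 and 10.19 under JQ1 in MHH-CALL4. All JQ1 arrays were lower than all DMSO arrays, but they were spread over a wider range. In MUTZ-5 the DMSO values were 10.85, 10.80 and 11.04 and the JQ1 values 10.82, 10.64 and 10.45, and 1 JQ1 array lay inside the DMSO range. RFX5 fell in MHH-CALL4 from 10.93 ± 0.072 to 10.37 ± 0.22 (1.48-fold, SE 0.12, adjusted p = 0.0028). In MUTZ-5 the difference was -0.26 (95% interval -0.52 to -0.0078, adjusted p = 0.147). It was -0.17 without MUTZ-5 JQ1 replicate 3 and -0.35 without JQ1 replicate 1, and did not pass with any 1 array left out. The difference of the effects, 0.30, did not pass the test (95% interval -0.057 to 0.66, adjusted p = 0.594), so the lines were not shown to differ in this gene.

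RFXAP, the RFX-associated subunit, had values of 9.21, 9.28 and 9.27 under DMSO and 9.01, 9.17 and 9.07 under JQ1 in MHH-CALL4. These groups did not overlap either, but the difference of -0.17 did not pass (95% interval -0.33 to -0.021, adjusted p = 0.0854). When genes below the median of all genes were left out of the test, the same difference passed (adjusted p = 0.0449). In MUTZ-5 RFXAP had values of 9.10, 9.15 and 9.25 under DMSO and 9.18, 9.22 and 9.11 under JQ1, and the groups overlapped throughout. The difference there was 0.0062 (95% interval -0.15 to 0.16).

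**Figure D1:**
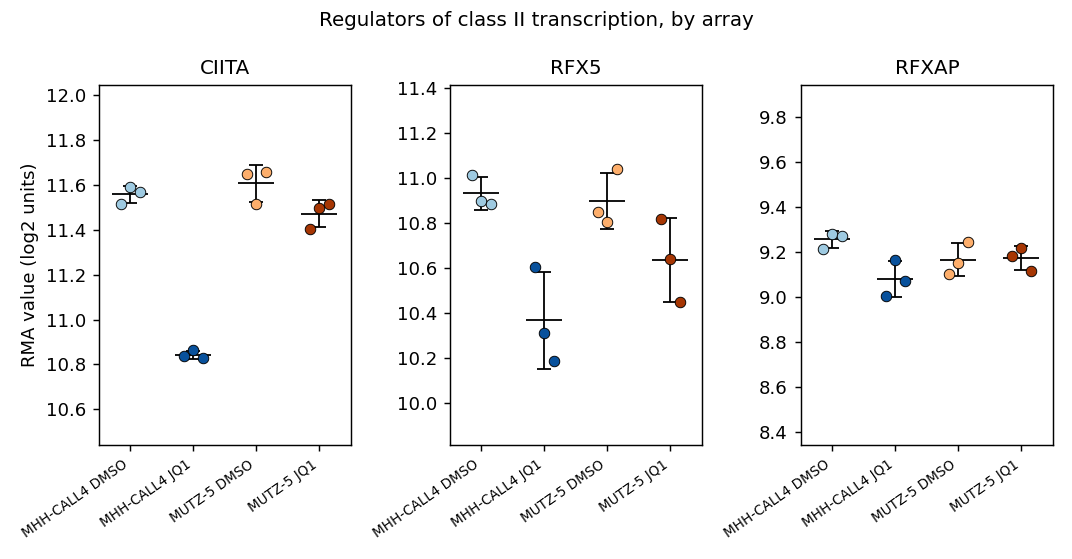
RMA values in log2 units of CIITA, RFX5 and RFXAP on each array, by group. Points are single arrays, wide ticks the group mean and whiskers 1 SD of 3 arrays; all panels span the same number of log2 units. The 3 CIITA values of MHH-CALL4 JQ1 lie between 10.83 and 10.86, below all other arrays, whereas the RFXAP values of all groups lie between 9.01 and 9.28.

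HLA-DRA, the chain shared by all HLA-DR molecules, had values of 13.66, 13.55 and 13.56 under DMSO and 13.60, 13.46 and 13.55 under JQ1 in MHH-CALL4. In MUTZ-5 it had values of 14.13, 14.09 and 14.16 under DMSO and 14.12, 14.08 and 13.95 under JQ1. DMSO and JQ1 arrays overlapped within each line, and the lines were apart under both treatments. The JQ1 effect on HLA-DRA was -0.056 in MHH-CALL4 (95% interval -0.21 to 0.10, adjusted p = 0.621) and -0.080 in MUTZ-5 (-0.24 to 0.077, adjusted p = 0.552). In the first line its sign turned under cyclic loess (0.0054). With 1 array left out the effects ranged from -0.089 to -0.016 in MHH-CALL4, the latter without JQ1 replicate 2, and from -0.12 to -0.030 in MUTZ-5, the latter without JQ1 replicate 3. The intervals end short of the fall of CIITA in MHH-CALL4, but the genes were not tested against each other.

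CD74, the invariant chain, had values of 13.55, 13.48 and 13.49 under DMSO and 13.59, 13.59 and 13.52 under JQ1 in MHH-CALL4. In MUTZ-5 the values were 13.85, 13.84 and 13.92 under DMSO and 13.94, 13.91 and 13.84 under JQ1. The treatments overlapped in each line here too. The JQ1 effect on CD74 was 0.061 in MHH-CALL4 (95% interval -0.079 to 0.20, adjusted p = 0.539), and -0.019 with the extended probe sets. In MUTZ-5 it was 0.027 (-0.11 to 0.17, adjusted p = 0.864). HLA-DRA and CD74 lay close to the top of the scale, whose highest value for any gene was 14.61, and whether the array compresses differences there was not tested.

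HLA-DMB, the beta chain of the peptide exchange factor, fell in MHH-CALL4 and did not pass in MUTZ-5, and its effects differed between the lines. In MHH-CALL4 it had values of 10.18, 10.07 and 9.99 under DMSO and 9.77, 9.66 and 9.51 under JQ1. In MUTZ-5 it had 11.48, 11.38 and 11.54 under DMSO and 11.61, 11.74 and 11.58 under JQ1. All JQ1 arrays lay below all DMSO arrays in the first line and above them in the second. In MHH-CALL4 the mean went from 10.08 ± 0.093 to 9.65 ± 0.13 (1.35-fold, SE 0.086, adjusted p = 0.0020). In MUTZ-5 the difference was 0.17 (95% interval -0.011 to 0.36, adjusted p = 0.194), which did not pass, nor did it with the extended probe sets, where it was 0.33. The difference of the effects was 0.61 (SE 0.12, adjusted p = 0.0217). That call was lost in 7 of 20 alternative settings. Its adjusted p was 0.0649 without MHH-CALL4 DMSO replicate 1, 0.0552 without MHH-CALL4 DMSO replicate 2 and 0.0583 without MHH-CALL4 JQ1 replicate 2. It was 0.0541 without MUTZ-5 DMSO replicate 1, 0.0571 without MUTZ-5 DMSO replicate 2, 0.0815 without MUTZ-5 JQ1 replicate 2 and 0.0716 with the extended probe sets. The size lay between 0.54 and 0.68 in all 20 settings.

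HLA-DOA, the alpha chain of the inhibitor of HLA-DM, had values of 9.84, 9.79 and 9.77 under DMSO and 9.62, 9.58 and 9.37 under JQ1 in MHH-CALL4. In MUTZ-5 it had 10.67, 10.60 and 10.84 under DMSO and 10.87, 10.83 and 10.78 under JQ1. The groups were apart in MHH-CALL4 and overlapped in MUTZ-5. HLA-DOA fell in MHH-CALL4 from 9.80 ± 0.035 to 9.52 ± 0.14 (1.21-fold, SE 0.085, adjusted p = 0.0258). It no longer passed once MHH-CALL4 JQ1 replicate 3 was left out (difference -0.20, adjusted p = 0.107) and without DMSO replicate 1, 2 or 3 of that line (adjusted p = 0.0788, 0.0604 and 0.0544). Without both MHH-CALL4 JQ1 array 3 and MUTZ-5 DMSO array 3 the adjusted p was 0.0388. In MUTZ-5 the difference was 0.12 (95% interval -0.060 to 0.31, adjusted p = 0.393), with 0.070 without DMSO replicate 2 and 0.19 without DMSO replicate 3. The difference of the effects, 0.40, did not pass (adjusted p = 0.155), though without MUTZ-5 DMSO replicate 3 it did (0.47, adjusted p = 0.0498). RNA was taken from whole cultures, so fewer cells of a type and less RNA per cell cannot be told apart in these results.

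**Figure D2:**
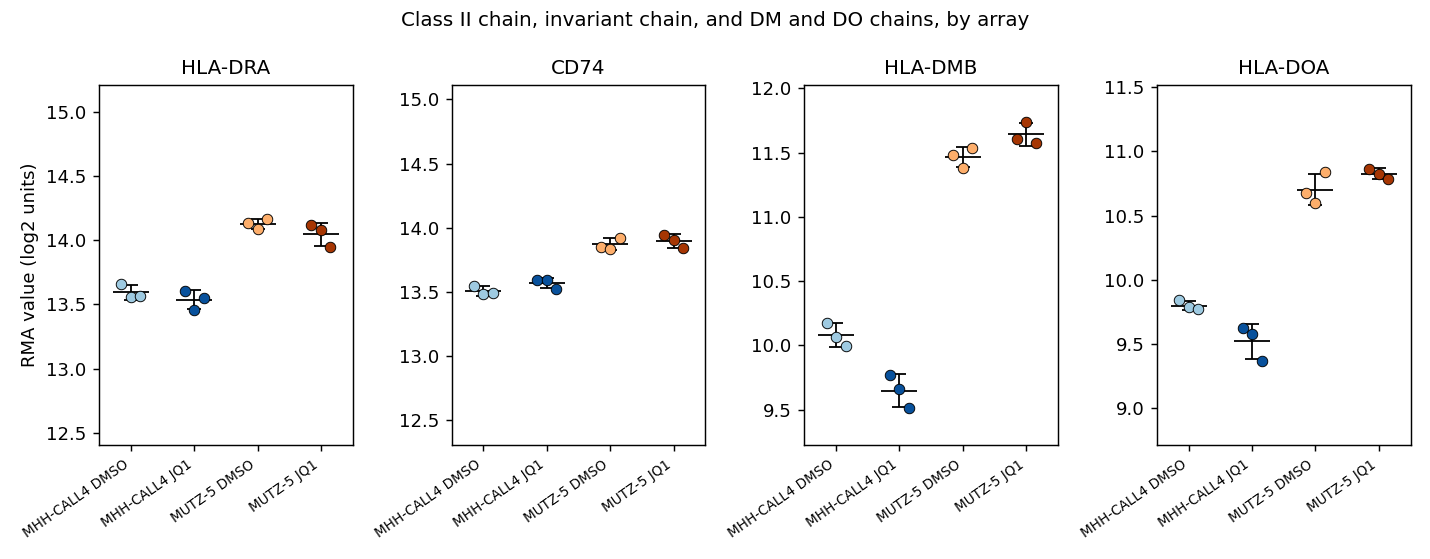
RMA values in log2 units of HLA-DRA, CD74, HLA-DMB and HLA-DOA on each array, by group. Points are single arrays, wide ticks the group mean and whiskers 1 SD of 3 arrays, and all panels span the same number of log2 units. MUTZ-5 arrays lie above MHH-CALL4 arrays in every panel, and the JQ1 arrays of MHH-CALL4 lie below its DMSO arrays for HLA-DMB (9.51 to 9.77) and HLA-DOA (9.37 to 9.62).

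**Figure D3:**
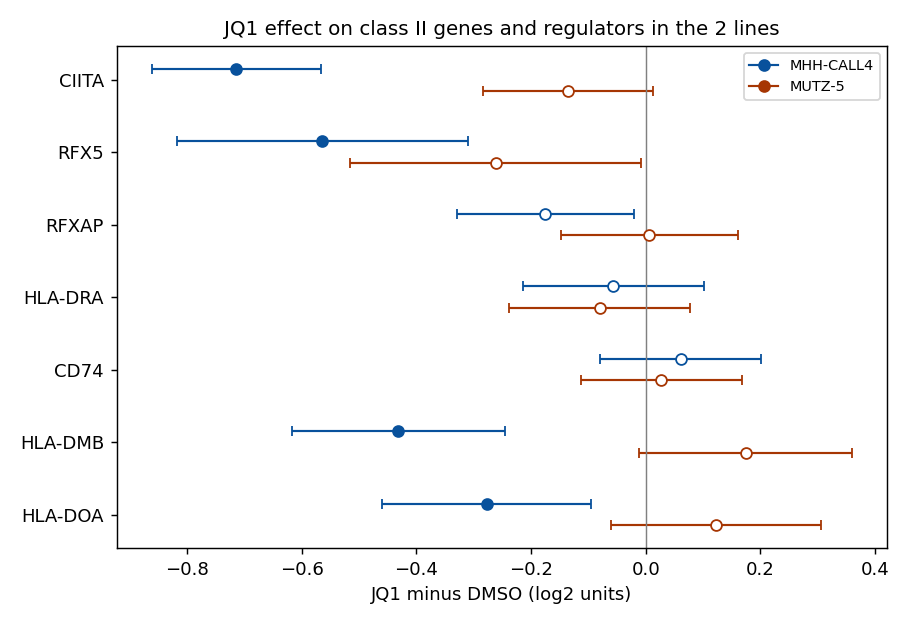
JQ1 minus DMSO in log2 units for the 7 genes in MHH-CALL4 and MUTZ-5. Points are limma estimates, lines their 95% intervals, and filled points passed an adjusted p of 0.05 over all genes. CIITA, RFX5, HLA-DMB and HLA-DOA are filled for MHH-CALL4 (-0.71, -0.56, -0.43 and -0.28) and no point is filled for MUTZ-5.

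Promoter sequences of the genes whose RNA did and did not fall are shown because CIITA acts through fixed promoter elements. They are RefSeq sequences of build GRCh38.p14 from 250 bases before to 50 after the gene's start, written 5′ to 3′ along the gene. Of the 10 named genes all but CIITA and HLA-DRA matched an entry. The letters of 3 motifs were searched on both strands: the Y box ATTGG, a core of the X1 box, GCAACAG, and the X2 box, TGNGTCA. Capitals mark these matches, which do not overlap here.
HLA-DOA, chr6:33009542-33009841, minus strand, reads as follows.
HLA-DOA: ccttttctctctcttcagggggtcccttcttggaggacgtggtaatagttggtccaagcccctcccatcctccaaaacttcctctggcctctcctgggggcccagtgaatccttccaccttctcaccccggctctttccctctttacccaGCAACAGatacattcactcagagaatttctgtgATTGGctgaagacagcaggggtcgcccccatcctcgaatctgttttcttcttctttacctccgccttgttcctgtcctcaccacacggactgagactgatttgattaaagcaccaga
HLA-DMB, chr6:32940979-32941278, minus strand, reads as follows.
HLA-DMB: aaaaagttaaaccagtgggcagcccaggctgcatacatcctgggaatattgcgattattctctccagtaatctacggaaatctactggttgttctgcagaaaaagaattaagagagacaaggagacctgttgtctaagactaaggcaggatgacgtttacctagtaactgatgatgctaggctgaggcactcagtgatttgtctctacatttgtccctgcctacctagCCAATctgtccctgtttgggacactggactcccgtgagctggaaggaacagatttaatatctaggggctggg
CD74, chr5:150412861-150413160, minus strand, reads as follows.
CD74: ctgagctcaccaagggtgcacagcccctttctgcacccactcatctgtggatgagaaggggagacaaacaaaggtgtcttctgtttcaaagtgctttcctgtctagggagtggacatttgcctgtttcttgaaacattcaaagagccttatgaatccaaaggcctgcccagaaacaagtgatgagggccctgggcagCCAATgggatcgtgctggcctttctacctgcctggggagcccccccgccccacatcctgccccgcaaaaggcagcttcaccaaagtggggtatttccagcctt
RFX5, chr1:151347203-151347502, minus strand, reads as follows.
RFX5: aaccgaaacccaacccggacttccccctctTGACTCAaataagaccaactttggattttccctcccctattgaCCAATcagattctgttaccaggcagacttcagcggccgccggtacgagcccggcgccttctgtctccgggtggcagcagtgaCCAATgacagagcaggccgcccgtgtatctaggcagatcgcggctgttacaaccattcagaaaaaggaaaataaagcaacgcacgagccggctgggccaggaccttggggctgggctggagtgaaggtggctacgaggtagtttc

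In the HLA-DOA window the X1 core and the Y box stood on the sense strand, with their first bases 100 and 67 bases before the start. HLA-DMB and CD74, of which the first fell in MHH-CALL4 and the second did not pass, each held 1 Y box on the antisense strand, 22 and 53 bases before the start. RFX5 held 2 Y boxes and 1 X2 box, all on the antisense strand, and RFXAP 1 X2 box. Of all 35116 RefSeq promoters of this length, 34.6% held the Y box letters, 4.33% the X1 core, 14.03% the X2 letters and 1.57% both the X1 core and the Y box. These matches are letters only and show no binding. The X1 core letters were also absent from the windows of HLA-DRB1, HLA-DQA1, HLA-DQB1 and HLA-DPB1. An exact search misses variant letters, so a window without a match is not shown to lack an X box. By gene order in RefSeq, HLA-DOA lies between BRD2, which encodes a BET protein, and HLA-DPA1, and HLA-DMB lies between PSMB9 and HLA-DMA. These neighbours were chosen after values were seen, and a link between gene position and the JQ1 effects was not tested.

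The comparison of the lines asks whether they differed in this pathway at the start and whether JQ1 changed that. Under DMSO MUTZ-5 had more RNA of HLA-DMB, HLA-DOA, HLA-DRA and CD74 than MHH-CALL4, while CIITA, RFX5 and RFXAP did not pass. Of the 7 genes 4 were called higher in MUTZ-5 and 0 lower, where 11.9% of all genes were called higher and 11.5% lower. In these 4 genes every MUTZ-5 DMSO array lay above every MHH-CALL4 DMSO array, as in 20% of all genes, and 16.1% lay the other way. HLA-DMB was 2.62-fold higher (difference 1.39, SE 0.086, adjusted p = 3.2e-08), HLA-DOA 1.87-fold (adjusted p = 2.2e-06), HLA-DRA 1.45-fold (adjusted p = 8.6e-05) and CD74 1.29-fold (adjusted p = 8.8e-04). CIITA stood at 0.049 (95% interval -0.098 to 0.20, limma adjusted p = 0.668), RFX5 at -0.034 (-0.29 to 0.22) and RFXAP at -0.090 (-0.24 to 0.064). Whether the regulators play a part in the higher class II RNA of MUTZ-5 was not tested, and RFXANK was not measured. The sign of the CIITA value turned with the extended probe sets (-0.012), and that of RFX5 when 1 array was left out (up to 0.012).

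Under JQ1 the lines differed in 5 of the 7 genes, all higher in MUTZ-5, where 11.7% of all genes were called higher and 8.25% lower. The arrays of the lines did not overlap in these 5, as in 19.3% of all genes in that direction and 13.8% in the other. CIITA joined the 4 genes above and was 1.54-fold higher in MUTZ-5 (difference 0.63, SE 0.068, adjusted p = 1.1e-05). HLA-DMB was 3.99-fold higher and HLA-DOA 2.47-fold (adjusted p = 9.8e-10 and 6.1e-08). HLA-DRA (0.51) and CD74 (0.33) also passed (adjusted p = 1.4e-04 and 0.0021), with differences of effects of -0.024 (95% interval -0.25 to 0.20) and -0.034 (-0.23 to 0.16). RFX5 stood at 0.27 (adjusted p = 0.151), and passed without MHH-CALL4 JQ1 replicate 1 (0.39, adjusted p = 0.0303). It also passed when the 6 JQ1 arrays were fitted alone with the replicate number as a block (adjusted p = 0.0220), but not with that block in the fit of all 12 arrays (adjusted p = 0.136) or in the 6 arrays without it (adjusted p = 0.254). These differences use the same arrays as the JQ1 effects and are not independent of them.

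**Figure D4:**
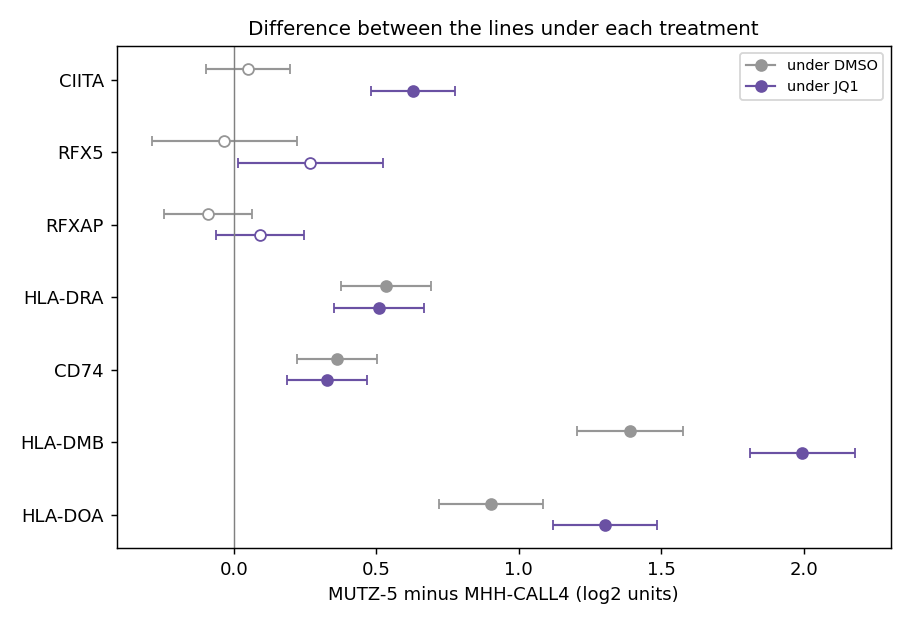
MUTZ-5 minus MHH-CALL4 in log2 units for the 7 genes under DMSO and under JQ1. Points are limma estimates, lines their 95% intervals, and filled points passed an adjusted p of 0.05 over all genes. CIITA is near 0 under DMSO (0.049) and at 0.63 under JQ1, while HLA-DRA and CD74 keep nearly the same difference under both.

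The other class II chains were described from a list of 10 genes, of which 4 had a row of their own. In MHH-CALL4 HLA-DPB1 and HLA-DPA1, the chains of HLA-DP, fell and HLA-DQA2 and HLA-DQB2 did not pass (median of the 4 -0.17, with 17.5% of all genes lower). In MUTZ-5 0 of 4 passed by limma, nor did any at an unadjusted p under 0.05 (median -0.040). Over all genes in that line 13% were called lower and 9.06% higher. HLA-DPB1 had values of 13.37, 13.33 and 13.35 under DMSO and 13.18, 13.01 and 12.96 under JQ1 in MHH-CALL4, so all JQ1 arrays were lower (difference -0.30, adjusted p = 0.012). HLA-DPA1 fell by 0.29 (adjusted p = 0.014), but not past the threshold when MHH-CALL4 JQ1 replicate 2 or 3 was left out (adjusted p = 0.0539 and 0.0513). In MUTZ-5 their differences were -0.020 and -0.039, but the differences of effects did not pass (adjusted p = 0.365 and 0.443). Under DMSO all 4 chains were called higher in MUTZ-5, where 11.9% of all genes were called higher and 11.5% lower. The differences were 1.12 for HLA-DQA2, 0.60 for HLA-DQB2, 0.57 for HLA-DPB1 and 0.27 for HLA-DPA1. The last did not pass the threshold when any of 3 arrays was left out. Those arrays were MHH-CALL4 DMSO replicates 2 and 3 and MUTZ-5 DMSO replicate 3 (adjusted p = 0.0692, 0.0682 and 0.0588), and the call was also lost with only the 6 DMSO arrays in the fit (adjusted p = 0.0515). All group means of HLA-DQB2 (7.23 to 7.83) lay below the median of all genes. HLA chains resemble each other, and probes that read more than 1 of them cannot be told apart here.

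DNA-binding partners and coactivators of CIITA were listed as 14 genes, of which 9 were measured. In MHH-CALL4 3 fell, 2 rose and 4 did not pass (median -0.12), and in MUTZ-5 2 fell, 3 rose and 4 did not pass (median -0.040). The shares over all genes were 17.5% lower and 11% higher in the first line and 13% and 9.06% in the second. CARM1, a histone arginine methyltransferase, fell by 0.61 in MHH-CALL4 and 0.57 in MUTZ-5, and SMARCA4, the ATPase of the BAF remodeler, by 0.47 and 0.34. KAT2B, a histone acetyltransferase, rose by 0.54 and 0.68, the first not past the threshold without MHH-CALL4 DMSO replicate 2 or JQ1 replicate 1 (adjusted p = 0.0506 and 0.0512). ZXDC, a zinc finger partner of CIITA, rose by 0.34 and 0.37, the first not past it with rows of a gene averaged (adjusted p = 0.0751). CREB1 rose by 0.36 in MUTZ-5, with adjusted p between 0.0503 and 0.0623 without MUTZ-5 DMSO replicate 2, JQ1 replicate 1 or JQ1 replicate 2, and stood at 0.25 in MHH-CALL4. Of the genes that control CIITA transcription 11 of 12 were measured, with 3 lower, 1 higher and 7 not past the test in MHH-CALL4 (median -0.13), and 2 lower, 1 higher and 8 not past it in MUTZ-5 (median 0.073). EBF1, a B lineage factor, fell by 0.45 and E2F1 by 0.33 in MHH-CALL4, with -0.13 and -0.034 in MUTZ-5. SPI1, which encodes PU.1, fell by 0.51 and 0.77, but with extended probe sets its values were -0.22 and -0.19 and did not pass (adjusted p = 0.0652 and 0.153). PRDM1, the plasma cell factor known to silence CIITA, fell by 0.88 in MUTZ-5 (adjusted p = 4.1e-05) and stood at -0.22 in MHH-CALL4 (adjusted p = 0.138), and all its group means (7.18 to 8.43) lay below the median of all genes. The difference of its effects (-0.66, adjusted p = 0.0408) was lost when any array was left out except MHH-CALL4 DMSO replicate 1 or JQ1 replicate 3, with adjusted p between 0.0537 and 0.121. It was -0.58 (adjusted p = 0.0537) without MUTZ-5 DMSO replicate 3, and was also lost under cyclic loess (adjusted p = 0.172) and with the replicate block (0.0664). FOXO1 rose by 0.43 and 0.36.

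Among proteases and other endosomal genes 10 of 12 were measured. In MHH-CALL4 2 fell, 3 rose and 5 did not pass (median -0.055), and in MUTZ-5 1 fell, 3 rose and 6 did not pass (median 0.013). Beside them 17.5% of all genes fell and 11% rose in the first line, with 13% and 9.06% in the second. CTSS, the protease that trims the invariant chain, fell by 0.75 in MHH-CALL4 and by 0.56 in MUTZ-5 (adjusted p = 2.45e-04 and 0.0028), whereas the cathepsin gene CTSB rose by 0.50 and 0.55. CTSH fell by 0.38 in MHH-CALL4, but not past the threshold with the extended probe sets (adjusted p = 0.0754) or without DMSO replicate 2, JQ1 replicate 1 or JQ1 replicate 2 (0.0815, 0.0682 and 0.0565). All its group means (6.19 to 6.64) lay below the median of all genes. SPPL2A, which cleaves the last membrane remnant of CD74, rose by 0.31 and 0.40, the first with adjusted p between 0.0636 and 0.106 without MHH-CALL4 DMSO replicate 1 or 3 or JQ1 replicate 2 or 3. IFI30 rose by 0.30 in MUTZ-5, but not past the threshold without DMSO replicate 1 or JQ1 replicate 3 (adjusted p = 0.0522 and 0.0504). All 9 genes of turnover and transport were measured, of which 1 fell, 1 rose and 7 did not pass in MHH-CALL4 (median -0.024), and 1 fell and 8 did not pass in MUTZ-5 (median -0.035). The tetraspanin CD63 fell by 0.29 and 0.36, and CD82 rose by 0.35 in MHH-CALL4, a call lost with the extended probe sets (0.22, adjusted p = 0.114). Of 6 costimulation and adhesion genes 1 fell in MHH-CALL4 and 3 in MUTZ-5, the rest not passing (medians -0.073 and -0.20), and CD58, a ligand of T cell CD2, fell by 0.81 and 0.68. The T cell ligands CD86 and ICAM1 fell by 0.47 and 0.33 in MUTZ-5. The CD86 means there, 6.99 under DMSO and 6.52 under JQ1, lay below the median of all genes (8.52). The CD86 call was lost without MUTZ-5 DMSO replicate 2 or 3 or JQ1 replicate 1 or 2 (adjusted p between 0.0537 and 0.0991), and the ICAM1 call without DMSO replicate 1 or 3 or JQ1 replicate 1 or 2 (between 0.0584 and 0.109).

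Class I presentation was listed beside class II for comparison, with 13 of 19 genes measured. In MHH-CALL4 7 fell, 1 rose and 5 did not pass (median -0.26), and in MUTZ-5 6 fell, 0 rose and 7 did not pass (median -0.18). For comparison 17.5% of all genes were lower and 11% higher in MHH-CALL4, while MUTZ-5 had 13% and 9.06%. The peptide-trimming enzyme ERAP1 fell by 0.72 in MHH-CALL4 and 0.83 in MUTZ-5, the immunoproteasome subunits PSMB8 by 0.59 and 0.45 and PSMB10 by 0.47 and 0.38. ERAP2 fell by 0.72 and 0.51, the second not past the threshold without MUTZ-5 DMSO replicate 3 or JQ1 replicate 3 (adjusted p = 0.0611 and 0.0642). NLRC5, the class I counterpart of CIITA, fell by 0.27 and 0.46, the first not past it without MHH-CALL4 DMSO replicate 2 or 3 or JQ1 replicate 1 (adjusted p = 0.0601, 0.053 and 0.0689). The NLRC5 effects were not shown to differ between the lines (-0.19, adjusted p = 0.625).

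**Figure D5:**
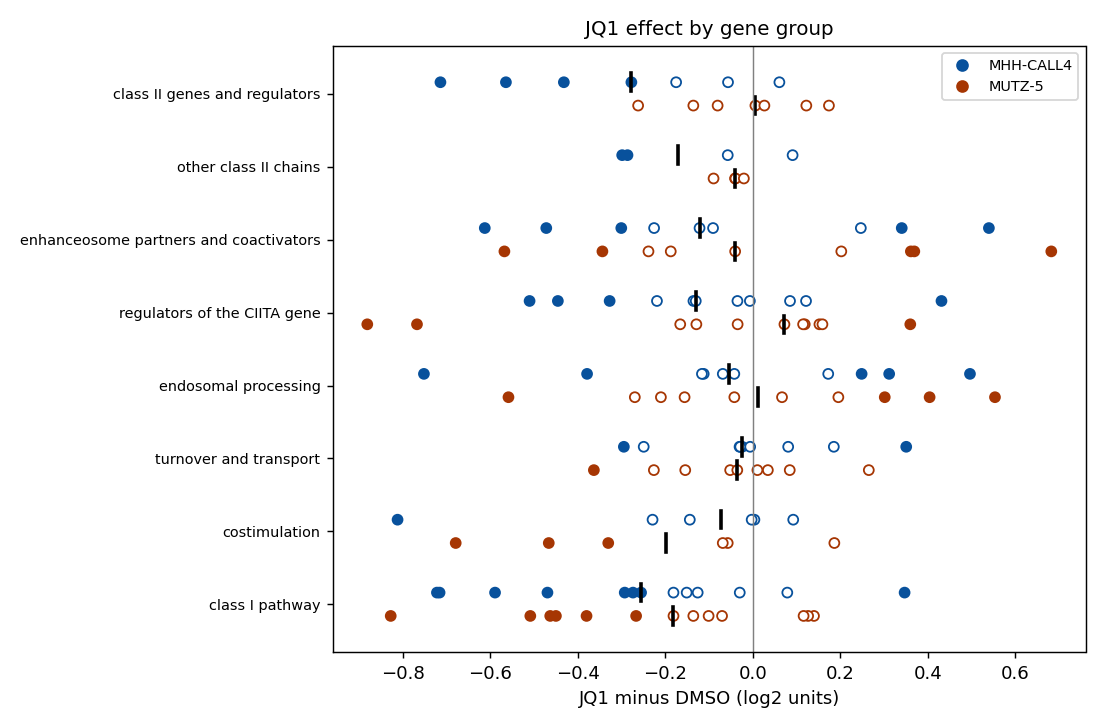
JQ1 minus DMSO in log2 units for every measured gene of each gene group, in MHH-CALL4 (upper row of a pair) and MUTZ-5 (lower row). Filled points passed an adjusted p of 0.05 over all genes and black bars are group medians, at -0.28 and 0.0062 for class II genes and regulators and at -0.26 and -0.18 for the class I pathway.

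For CIITA, HLA-DRA and CD74 the 5 genes with the most similar profile over the 12 arrays were named. The measure is the root mean square difference between values centred on each gene's own mean. For CIITA they were AKIP1 (0.090), PARP16 (0.090), GFI1 (0.097), EVL (0.098) and TTLL12 (0.10). For HLA-DRA they were CD53 (0.067), DCLRE1B (0.077), BET1L (0.081), TCF4 (0.081) and HROB (0.083), and for CD74 NAXE (0.047), GSTK1 (0.048), MEF2C (0.048), CSRP1 (0.060) and MLLT11 (0.060). No class II gene or regulator was among these 15 genes. Genes without a row of their own, such as HLA-DRB1, HLA-DQA1 and HLA-DMA, could not be. The measure also counts the size of differences, so genes that move together by unlike amounts rank low. Whether class II genes vary together was not tested.

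Markers of other cell types were set beside these results. In MHH-CALL4 2 of the 10 myeloid and dendritic markers fell under JQ1, LYZ by 0.83 and CD1C by 0.86, and 8 did not pass, where 17.5% of all genes fell. LYZ stood at 6.63 ± 0.17 under DMSO and 5.80 ± 0.017 under JQ1, with a called difference of effects between the lines (1.03, adjusted p = 0.0032). In MUTZ-5 CD1C alone of the 10 fell (-0.57), with adjusted p between 0.0511 and 0.0614 without DMSO replicate 2 or 3 or JQ1 replicate 1 or 2, where 13% of all genes fell, and under DMSO the LYZ difference of MUTZ-5 minus MHH-CALL4 was -1.05. NKG7 alone of the 12 T and NK cell markers changed, falling by 0.96 and 0.64 in MHH-CALL4 and MUTZ-5. The part of these markers in the class II results was not tested.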

How the data were processed

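Per the labels, cDNA made from total RNA was labelled with biotin and read on 12 arrays. Per the submitters' processing notes and design text, the authors made the deposited log2 values by RMA in Affymetrix Expression Console, over the core and the extended probe set lists, so the 24 columns hold each array 2 times. Its version, the build and which arrays were normalized together are not given in the sources used here. No detection calls or scan dates were used, so signal over background and batches are unknown. The number of arrays limits the precision.

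Core rows with 1 symbol (14432) were named through the platform annotation. For genes with several rows (197) the row of highest mean was kept, and no filter was applied. limma 3.58.1 in R 4.3.3 (lmFit, eBayes, 1 mean per group over 4 groups, two-sided) gave 5 comparisons, adjusted by Benjamini-Hochberg over 14232 genes, and was tested on simulated data. Alternatives were the extended list, median centring, cyclic loess, a level filter, fewer arrays, a replicate block, trended robust variances, averaged rows and leaving out arrays. Leaving out 2 arrays together, and a block over the 6 JQ1 arrays alone, were added after seeing the data. Residuals of same-numbered JQ1 arrays of the lines correlated at 0.23, 0.20 and 0.47, all above 0.1. MHH-CALL4 JQ1 array 2 correlated more with MUTZ-5 JQ1 array 1 (0.22) than with array 2 (0.20). MHH-CALL4 JQ1 array 1 correlated nearly equally with MUTZ-5 JQ1 arrays 1 and 2 (0.23 and 0.21). Only array 3 stood out with its own number, so the data do not settle a pairing of these 2 groups, and the labels name none. Members and lists were chosen with earlier results of these data known. Named genes are all measured members, up to 4 called genes per list and line with the largest change, the 5 most similar genes for CIITA, HLA-DRA and CD74, and MYC and HEXIM1. IRF8, IFI30, TAP1 and ERAP2 between the lines, HLA-DQA2, HLA-DQB2 and the neighbouring genes were chosen after their values were seen.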

Additional observations from a re-analysis of the deposited data

Results flagged for a closer look

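The JQ1 effect on CIITA differed between the lines by 0.58 log2 (MUTZ-5 minus MHH-CALL4, limma interaction, adjusted p = 0.0066), with all 3 MHH-CALL4 JQ1 arrays below all others. The call held under all 20 alternatives, with values between 0.51 and 0.61 and adjusted p between 9.99e-04 and 0.0275.

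The JQ1 effect on HLA-DMB differed by 0.61 log2 (limma interaction, adjusted p = 0.0217), with the 3 JQ1 arrays below all DMSO arrays in MHH-CALL4 and above them in MUTZ-5. Of all genes, 24.1% lay below in this way in MHH-CALL4 and 13.8% above in MUTZ-5. The higher values in MUTZ-5 did not pass the test by themselves. The difference of the effects kept its direction under all 20 alternatives and its call under 13 of them. No cause was tested for either gene.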

How the results depend on the processing

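Of 945 values recomputed for the 7 genes and the counts of calls, 907 were rated as kept. For a gene this means the same direction and the same side of the threshold. A count of calls was rated as kept within a set ratio of the main count, so it could change. For JQ1 in MHH-CALL4, counts of 2947 to 4575 called genes with 1 array left out, in place of 4057, were rated as kept. With the extended probe sets the sign turned for CD74 in MHH-CALL4 (-0.019), RFXAP in MUTZ-5 (-0.00048), the differences of effects of CD74 (0.098) and HLA-DRA (0.0022), and the CIITA line difference under DMSO (-0.012), all values that had not passed. The HLA-DMB difference of effects was 0.68 there and did not pass, which left 1 of the 7 genes with a called difference in place of 2. Cyclic loess turned HLA-DRA in MHH-CALL4 (0.0054), and leaving out MHH-CALL4 JQ1 array 3 and MUTZ-5 DMSO array 3 together, chosen after seeing the data, turned its difference of effects (0.0017). The level filter, which tests fewer genes, brought RFXAP in MHH-CALL4 (-0.17) past the threshold and left 136 called differences of effects in place of 218.

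Leaving out 1 array at a time gave ranges of -0.33 to -0.20 for HLA-DOA in MHH-CALL4, -0.026 to 0.046 for RFXAP in MUTZ-5, 0.54 to 0.67, 0.32 to 0.47 and -0.064 to 0.027 for the differences of effects of HLA-DMB, HLA-DOA and HLA-DRA, and -0.11 to 0.012 and 0.18 to 0.39 for the RFX5 line differences under DMSO and JQ1. The genes with a called difference of effects numbered 157 to 360 (360 without MUTZ-5 DMSO replicate 3), and among the 7 genes 1 to 3. Median centring moved the split of calls from 2494 lower and 1563 higher to 2293 and 2162 in MHH-CALL4, from 1848 and 1290 to 1656 and 1761 in MUTZ-5, and from 1635 and 1695 to 2039 and 1462 between the lines under DMSO. Causes were not tested.

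Over all groups the numbers did not pair the samples: 6 of 18 same-numbered pairs correlated above 0.1 in their residuals, and 4 of 12 arrays correlated best with their own number. The groups were not alike in this. All same-numbered pairs with MUTZ-5 DMSO were negative (-0.62 to -0.092), while those of MHH-CALL4 DMSO with MHH-CALL4 JQ1 stood at 0.30, 0.070 and 0.23. The replicate block gave 3685 called genes for JQ1 in MHH-CALL4, 2804 for JQ1 in MUTZ-5 and 176 for the difference of effects, with 4, 0 and 2 of the 7 genes. For the lines under JQ1, the one pair of groups in which all 3 same-numbered pairs exceeded 0.1, it gave 2565 called genes in place of 2836. It changed no call among the 7 genes in these comparisons. The 6 JQ1 arrays alone with the block, added after seeing the data, gave 3493 called genes and 6 of the 7, with RFX5 (0.27) now called. Of 1499 values for 72 results on other genes, 58 lost the call and 0 changed sign. These results were chosen for being called, most with the largest changes of their list, or after their values were seen. That choice favours calls that hold.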

Other observations

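Lists of genes around class II were also compared between the lines under DMSO, where 11.5% of all genes were lower and 11.9% higher in MUTZ-5 than in MHH-CALL4. Of 11 regulators of the CIITA gene 3 were lower and 2 higher, of 10 endosomal genes 3 and 1, and of 13 class I genes 1 and 5. The genes below are the most distant in these lists and were chosen after their values were seen. IRF8, a factor of B and dendritic cells, was higher in MUTZ-5, at 13.18 ± 0.044 against 10.77 ± 0.064 in MHH-CALL4 (difference 2.41, limma adjusted p = 8.6e-12, n = 3). IFI30, the endosomal reductase that opens disulfide bonds of antigens, was lower in MUTZ-5 (difference -2.07, 10.82 ± 0.11 against 12.89 ± 0.057, adjusted p = 1.9e-10). The class I list moved both ways: TAP1, a peptide transporter subunit, was higher in MUTZ-5 by 1.26 (11.82 ± 0.12 against 10.56 ± 0.032, adjusted p = 6.6e-08), while the peptide-trimming ERAP2 was lower (difference -1.26, 9.02 ± 0.18 against 10.28 ± 0.11, adjusted p = 9.62e-06). These 4 differences kept their call under all 21 alternatives run for this comparison.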
